A study of Homo sapiens with 12 samples.

Results

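Summits of chimeric EGFR ChIP-seq that lay at promoters of protein-coding genes are described here. A summit is the single base at which MACS2 placed the maximum of an enriched region, and the 4 lists of GluGlu summits held 2186 of them in all. A summit was taken as a promoter summit when it lay on chromosomes 1 to 22 or X within 1000 bp, on either side, of the start of any transcript of a gene that GENCODE 44 annotates as protein-coding, and 286 summits (13.1%) met this rule. The rule used positions only, so the genes reached, the offsets from the start, the scores and the presence in each list were not fixed by it.

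All libraries came from B2B1 cells, 1 clone of the breast epithelial line MCF10A-5E that carries 2 chimeric receptors, NGFR-EGFR-FRB with a GluGlu tag and human EGFR residues, and NGFR-Erbb2-FKBP with an HA tag and rat Erbb2 residues. Cells were kept for 7 days in overlay culture in medium with EGF. The plus-AP cultures received 0.5 µM AP21967 (AP), a synthetic ligand that joins the FRB and FKBP ends of the 2 chimeras into a heterodimer, for the last 24 h, and the vehicle control of the minus-AP cultures was 0.1% ethanol. Chromatin was precipitated with antibody against the GluGlu tag, with 2 biological replicates per condition, so every group carried both chimeras and the tag, and the conditions differed in AP. The other 8 libraries (input and naive IgG) were not analysed here as separate lists. The 4 lists differed widely in length, with 739 (replicate 1) and 56 (replicate 2) summits for minus AP, and with 1094 (replicate 1) and 297 (replicate 2) for plus AP. Depth per library is unknown from these lists, so a gene without a summit in a list may have gone undetected there and is not shown to be unbound.

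As background, a promoter is the stretch around a transcription start where general transcription factors and RNA polymerase II assemble. Some promoters position the polymerase through a TATA box shortly before the start, and many others are rich in CpG dinucleotides and in GC boxes bound by SP and KLF factors. Receptors of the ErbB family are membrane tyrosine kinases that can also be found in the nucleus, where EGFR has been described at promoters without having a DNA-binding domain of the transcription factor kind. ChIP-seq with crosslinked chromatin records regions where the tagged protein is near DNA, directly or through other proteins.

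Upstream sequences of 5 promoters are shown for the genes on which the presence by list turned. TXNIP, JUNB and NFKBIA had promoter summits in all 4 lists, DDIT4 had them in both minus-AP lists only, and the divergent histone pair H2BC21 and H2AC20 had them in both plus-AP lists only. Sequences are from GRCh38, run 5′ to 3′ on the strand named, stop before the start of the canonical transcript, and hold no annotated exon. Capitals mark matches on either strand to the TATA box (TATAAA), the CCAAT box, the GC box (GGGCGG), the NF-kappaB consensus or the CArG box of serum response factor. The AP-1 site (TGANTCA), the E-box (CACGTG) and the cyclic AMP element were also searched and had no match in these 5 stretches.
TXNIP, chr1:145996580-145996699, minus strand: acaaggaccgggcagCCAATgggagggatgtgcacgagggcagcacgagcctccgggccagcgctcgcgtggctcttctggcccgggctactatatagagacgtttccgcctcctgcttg
JUNB, chr19:12791366-12791485, plus strand: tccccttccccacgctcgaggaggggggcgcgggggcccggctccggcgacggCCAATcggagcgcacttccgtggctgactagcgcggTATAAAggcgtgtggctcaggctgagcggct
NFKBIA, chr14:35404750-35404869, minus strand: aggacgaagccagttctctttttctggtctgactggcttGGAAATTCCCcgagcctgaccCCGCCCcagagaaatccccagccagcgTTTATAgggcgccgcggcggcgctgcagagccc
DDIT4, chr10:72273804-72273918, plus strand: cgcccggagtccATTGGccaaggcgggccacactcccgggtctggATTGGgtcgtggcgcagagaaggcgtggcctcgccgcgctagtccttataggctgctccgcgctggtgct
H2BC21 and H2AC20, chr1:149886683-149886917, the whole stretch between their starts, plus strand: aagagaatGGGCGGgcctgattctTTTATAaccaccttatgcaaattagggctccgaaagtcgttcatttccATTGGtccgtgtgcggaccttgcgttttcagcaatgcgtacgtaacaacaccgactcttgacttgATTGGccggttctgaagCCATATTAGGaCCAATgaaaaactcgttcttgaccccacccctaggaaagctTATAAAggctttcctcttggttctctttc
The JUNB stretch holds a CCAAT box and a TATA box, and the minus AP replicate 2 summit of this gene (position 12791373) lay inside it. The NFKBIA stretch holds an NF-kappaB match, a GC box and a TATA box on the opposite strand. Both histone genes face away from the 235 bp printed, and the highest-scoring promoter summit of plus AP replicate 2 (position 149886783) lay within it.

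The share of a list that lay at promoters differed far more between replicates than between conditions. The minus-AP lists had 29 of 582 summits on chromosomes 1 to 22 and X at promoters in replicate 1 (4.98%, Wilson 95% interval 3.49 to 7.07) and 30 of 56 in replicate 2 (53.6%, 40.7 to 66.0). The plus-AP lists had 43 of 907 in replicate 1 (4.74%, 3.54 to 6.33) and 184 of 296 in replicate 2 (62.2%, 56.5 to 67.5). Both replicate 1 lists were therefore low and both replicate 2 lists high, whichever the condition. The windows of the rule covered 4.33% of the sequenced bases of these chromosomes. Intervals cover counting error only, and neighbouring summits are not independent. Averaged over 2 libraries each, the share was 29.3% ± 34.4 (SD) in the absence of AP and 33.5% ± 40.6 (SD) in its presence, a difference of 4.17 percentage points (exact permutation test over the 4 libraries, two-sided, p = 1.0, where 0.333 is the smallest p that 2 against 2 can give). Within replicate 1 the difference was −0.242 points and within replicate 2 it was 8.59 points, and without minus AP replicate 1 or without plus AP replicate 2 the sign turned (−20.1 and −24.5 points).

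Promoter summits lay almost entirely in unique sequence, unlike the rest of the replicate 1 lists. Of the 286 promoter summits, 276 had no 75-base sequence within 250 bp that occurred elsewhere in the genome, and 2 had 50% or more of such sequences repeated. Those 2 were the summits at CROCC, the gene of the ciliary rootlet protein rootletin, in the replicate 1 lists, beside the U1 RNA gene RNU1-4. Among summits outside protein-coding genes and their promoters, 73.0% of the 519 in minus AP replicate 1 and 80.2% of the 813 in plus AP replicate 1 were repeated to that extent, against none of 18 and 69 in the replicate 2 lists. When only summits in mostly unique sequence were kept, the promoter share was 15.6% (28 of 180, 10.99 to 21.6) and 53.6% without AP, and 18.1% (42 of 232, 13.7 to 23.6) and 62.2% with AP. The replicates still differed, and the difference between conditions was 5.57 points (exact permutation test, two-sided, p = 0.667). Among summits inside or within 10000 bp of a protein-coding gene the shares were 35.4%, 65.2%, 38.1% and 71.0% in the same order. This restriction to unique sequence was chosen after seeing the data.

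**Figure D1:**
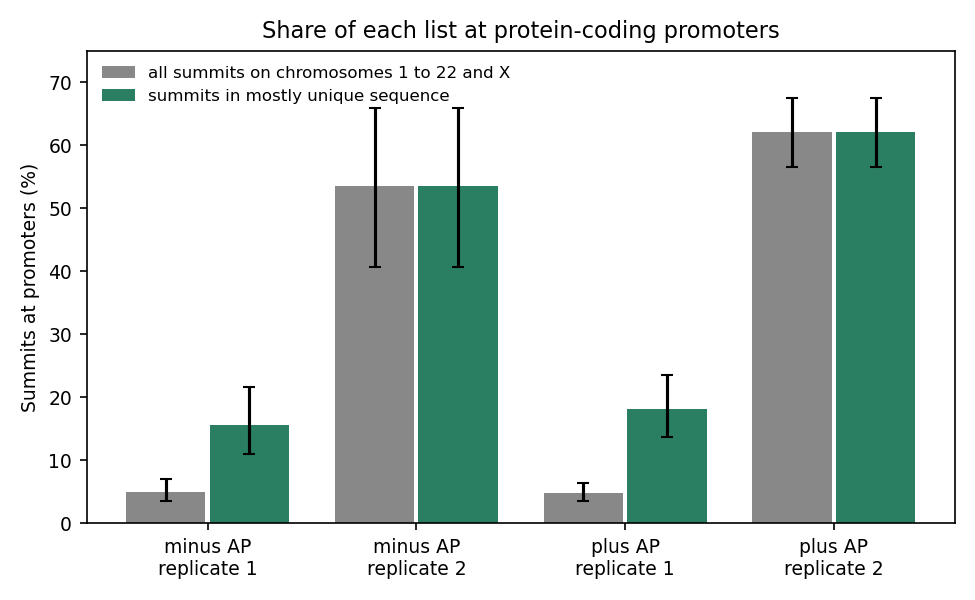
Share of summits at protein-coding promoters (%, y axis) in each of the 4 lists, for all summits on chromosomes 1 to 22 and X (grey) and for summits in mostly unique sequence (green), with Wilson 95% intervals. The replicate 1 lists reach at most 18.1% and the replicate 2 lists at least 53.6% on either basis.

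Promoter summits were centred just downstream of the nearest annotated start. Taking the nearest of several starts favours small offsets, and no background of positions in the windows was compared. With canonical starts only, the medians were 223 bp (replicate 1) and 135 bp (replicate 2) without AP and 194.5 bp and 81 bp with AP. The following offsets are to the nearest start. Over the 4 lists 36.7% lay 0 to 249 bp downstream and 23.4% lay 1 to 250 bp upstream, while 3.15% lay in the outermost 250 bp upstream. The median offset was 124 bp (replicate 1) and 73 bp (replicate 2) without AP against 56 bp (replicate 1) and 34.5 bp (replicate 2) with AP, where positive values are downstream, and every list had more summits at or downstream of the start than upstream (58.1% to 69.0%). Both plus-AP medians were below both minus-AP medians, under the main rule, averaging 45.3 bp ± 15.2 (SD, n = 2) against 98.5 bp ± 36.1 (SD, n = 2). The difference of −53.3 bp had the smallest p that this design allows, 0.333 (exact permutation test, two-sided), which does not pass 0.05. The order of the medians did not hold with canonical starts only, where plus AP replicate 1 (194.5 bp) was above minus AP replicate 2 (135 bp; p = 0.667, same exact test), nor with the 29 highest-scoring promoter summits of each list, where plus AP replicate 2 (81 bp) was above minus AP replicate 2 (74 bp).

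Relative to the canonical transcript of the gene with the nearest start, 37.1% of the summits were in an intron, 30.1% upstream of the transcript, 16.8% in the 5′ UTR, 13.99% in a coding exon and 1.75% in the 3′ UTR. Minus AP replicate 1 had most of its promoter summits in introns (65.5%), against 33.3% to 34.9% in the other lists. For 207 summits (72.4%) the gene with the nearest start had its canonical start within 1000 bp. For the other 79 only an alternative start of that gene was in reach. Near the limit of the rule, 21 summits lay 751 to 1000 bp from a start and 19 lay 1001 to 1250 bp from one. Just inside it were a summit of HOOK2 at −996 bp and one of SOD2 at −981 bp (both plus AP replicate 1), and just outside it were one of ZBTB37 at −1003 bp (plus AP replicate 1) and one of BIRC3 at 1003 bp (plus AP replicate 2). BIRC3, an inhibitor of apoptosis and NF-kappaB target, thus counted in 2 lists with a summit of another list close outside.

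**Figure D2:**
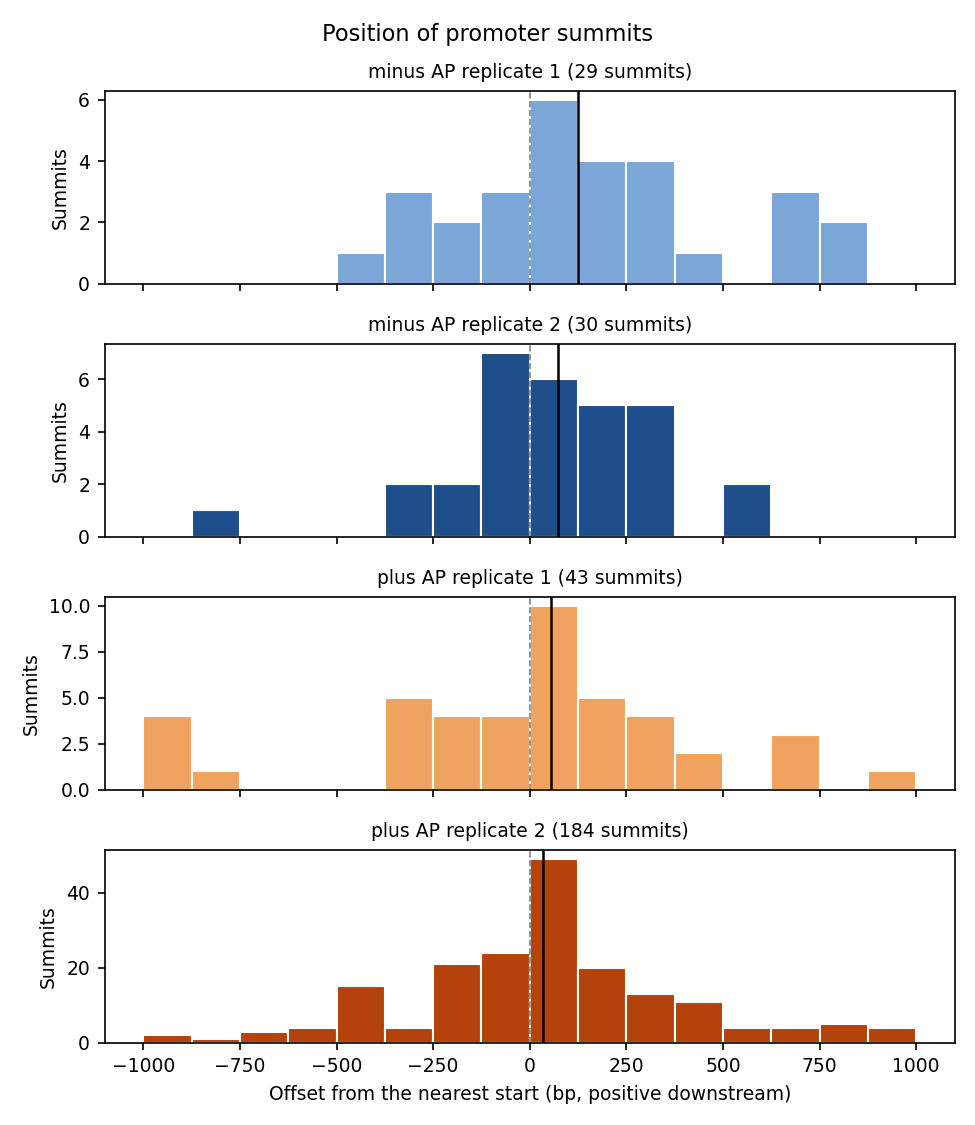
Number of promoter summits (y axis) by offset from the nearest protein-coding start (bp, positive downstream, x axis, bins of 125 bp) in each list, with the start dashed and the median as a solid line. The medians run from 34.5 to 124 bp downstream of the start.

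Promoter summits had median scores equal to or below those of other summits when compared with all others of the list. The score is −log10 of the MACS2 q-value and was compared only within a list, as the percentile among the list's summits on chromosomes 1 to 22 and X. The median percentile of promoter summits minus that of all other summits was −12.6 (replicate 1) and −2.68 (replicate 2) without AP and −5.62 (replicate 1) and 0.0 (replicate 2) with AP, a mean of −5.23 ± 5.44 (SD, n = 4; exact sign-flip permutation test, two-sided, p = 0.25, smallest possible 0.125). Against other summits inside or within 10000 bp of a protein-coding gene, the direction turned in minus AP replicate 2 (4.46), while the replicate 1 lists gave −8.76 without AP and −8.60 with AP and the remaining list gave 0.0. The best promoter summit ranked 161 of 739 and 132 of 1094 in the replicate 1 lists, where other summits held all the places above, but 1 of 56 and 3 of 297 in the replicate 2 lists. In 3 lists the best promoter summit was that of WDR74, with scores of 15.7, 16.99 and 30.3, and in plus AP replicate 2 it was that shared by H2BC21 and H2AC20, with a score of 17.04.

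**Figure D3:**
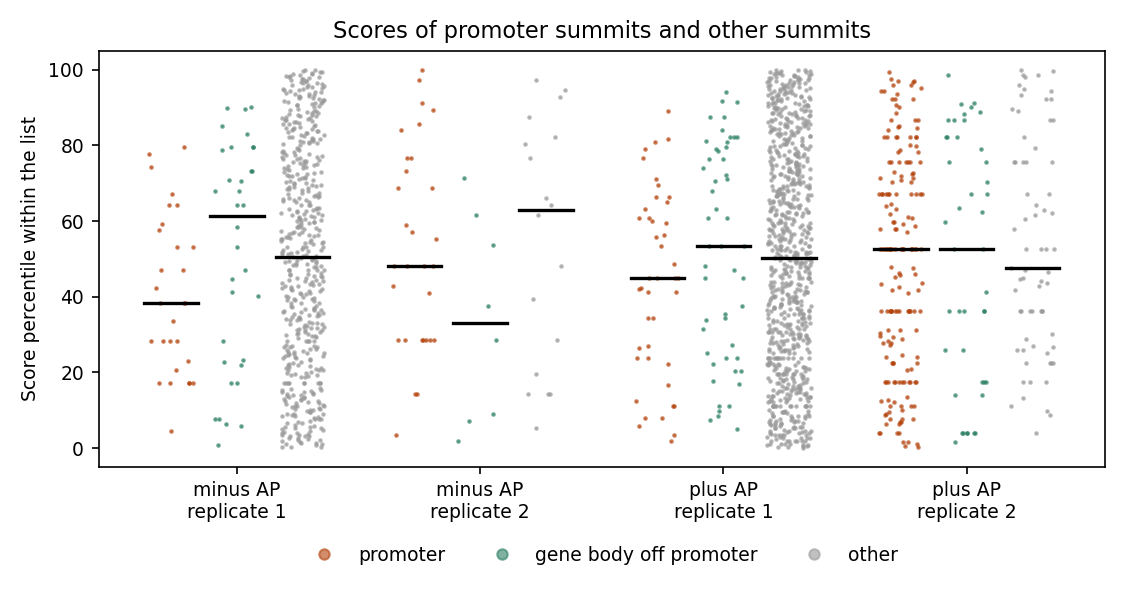
Score percentile within the list (y axis) of every summit on chromosomes 1 to 22 and X, by list and class, with black bars at the medians. Promoter medians lie between 38.2 and 52.5, and in the replicate 1 lists the highest promoter summits are at 79.6 and 89.1.

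Promoter summits reached 202 of the 19970 protein-coding genes (1.01%). A summit counted for every gene with a start in reach, which was more than 1 gene for 4 (replicate 1) and 27 (replicate 2) summits of the plus-AP lists. Minus AP replicates 1 and 2 reached 22 genes (0.11% of all) and 26 genes (0.13%), and plus AP replicates 1 and 2 reached 36 (0.18%) and 183 (0.916%). Only 39 genes were reached in 2 or more lists. Of the 163 genes in 1 list, 149 (91.4%) were in plus AP replicate 2, 8 in plus AP replicate 1, and 3 in each minus-AP list. Between replicates, 51.7% and 53.3% of the minus-AP promoter summits had a summit of the other replicate within 1000 bp, as had 72.1% of those in plus AP replicate 1 and 17.9% of those in plus AP replicate 2. For summits outside protein-coding genes and their promoters, the same share was 2.31% and 2.71% in the replicate 1 lists and 72.2% and 33.3% in the replicate 2 lists. Across conditions, 15 genes were common to minus AP replicate 1 and plus AP replicate 2, which is 68.2% of the former's genes and 8.20% of the latter's. Of the genes of minus AP replicate 2, 20 (76.9%) were in plus AP replicate 2.

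Promoter summits in all 4 lists were found for 9 genes (0.0451% of all protein-coding genes), among them GLUL, JUNB, KRT5, NFKBIA, RCC1, SOD2, TXNIP and WDR74. Both minus-AP lists shared 11 genes (0.0551%), these 9 with DDIT4 and SFN, and both plus-AP lists shared 24 (0.12%). TXNIP, whose product inhibits thioredoxin and restrains glucose uptake, had its best summit at 50 bp and 143 bp without AP and at 113 bp and 57 bp with AP, all in the 5′ UTR of exon 1 and within 93 bp of each other. It ranked 319 and 7 in the minus-AP lists and 513 and 8 in the plus-AP lists. By the best-scoring summit of each list, TXNIP thus had the smallest span of the 9 genes. Further summits at alternative starts extended its span to 2568 bp, above those of all summits of GLUL (137 bp) and WDR74 (168 bp). The KRT5 summits nearest the canonical start, at 81 to 124 bp, lay closer together, but not all were the best of their list.

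GLUL, the gene of glutamine synthetase, had 1 summit per list, at −148, −79, −11 and −100 bp from its nearest start in the order of the minus-AP and then the plus-AP replicates. All 4 were in intron 1 of the canonical transcript, 238 to 375 bp past its start, and spanned 137 bp. WDR74, a ribosome assembly factor, likewise had 1 summit per list, at 245, 216, 77 and 227 bp, spanning 168 bp and lying 1974 to 2142 bp upstream of its canonical start. Those summits were at an alternative start and 0 to 55 bp from the U2 spliceosomal RNA gene RNU2-2P, so the lists cannot tell which of the genes carried the signal.

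JUNB, a subunit of the transcription factor AP-1, had summits at 65 bp and −113 bp without AP and at 285 bp and 186 bp with AP, so the plus-AP summits were the more downstream. Its single exon spans 1830 bp, and the plus-AP lists each held another summit in it, 965 bp and 862 bp past its start, that was nearer to a start of HOOK2, a cytoplasmic linker protein.

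KRT5, the type II keratin of basal epithelial cells, had the most promoter summits, 17 in all: 4 and 2 without AP and 6 and 5 with AP. Every list had 1 of them in exon 1, at 109, 97, 124 and 81 bp from the canonical start, and the others were at alternative starts within the gene, over 4223 bp. NFKBIA, the gene of the NF-kappaB inhibitor IκBα, had 10 summits, with 1 in the minus AP replicate 1 list and 3 in each of the others. Its summits spread from −252 bp (plus AP replicate 2) to 3216 bp (3′ UTR, plus AP replicate 1) relative to the canonical start. KRT5 and NFKBIA therefore had summits along the gene as well as at its first start, and the promoter rule counted them through internal starts.

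SOD2, the mitochondrial manganese superoxide dismutase, and RCC1, the nucleotide exchange factor that loads Ran with GTP in the nucleus, met the rule in all lists through different starts. SOD2 summits were 869 and 1893 bp past the canonical start in minus AP replicate 1, 1464 bp in minus AP replicate 2, 3912 bp in plus AP replicate 1 and 179 and 2080 bp in plus AP replicate 2, all intronic. RCC1 summits lay at 720 bp and −33 bp without AP, at 3052 bp in plus AP replicate 1 and at −774, 908 and 4068 bp in plus AP replicate 2. When only canonical starts were used, 5 of the 9 genes kept a summit in every list, among them GLUL, JUNB, KRT5 and TXNIP. The genes in 2 or more lists had a median of 7 distinct annotated starts against 5 over all protein-coding genes, which gives them more window for the rule.

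**Figure D4:**
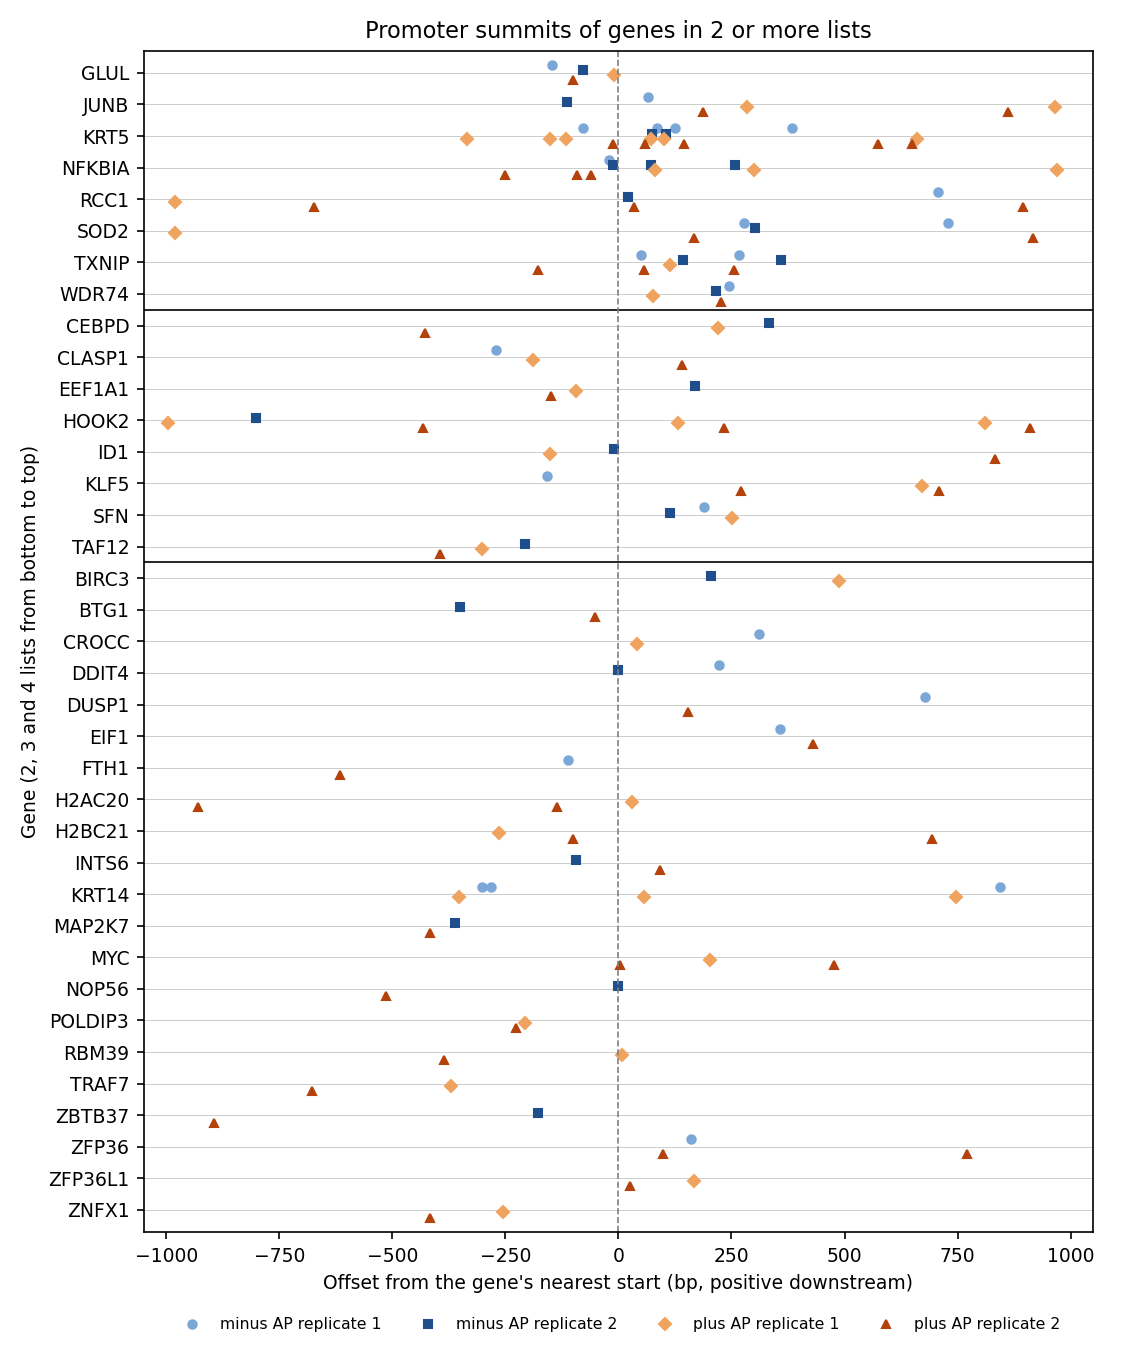
Offset (bp, positive downstream, x axis) of each promoter summit from the nearest start of its gene, for 37 of the 39 genes in 2 or more lists (y axis, 4 lists at the top), with blue symbols for minus AP and orange or brown for plus AP. The 4 summits of GLUL span 137 bp and those of WDR74 168 bp, while KRT5 has 17 summits at several starts.

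Genes in 3 lists were CEBPD, CLASP1, EEF1A1, HOOK2, ID1, KLF5, SFN and TAF12. HOOK2, TAF12 and CLASP1 met the rule through alternative starts, and no summit was closer to their canonical starts than 15821, 5431 and 118445 bp. All promoter summits of JUNB in the plus-AP lists also counted for HOOK2, so the lists cannot tell which gene carried the signal. KLF5, an epithelial zinc finger factor, was at −159 bp in minus AP replicate 1, at 671 bp in plus AP replicate 1 and at 271 and 708 bp in plus AP replicate 2. SFN, the epithelial 14-3-3 sigma protein, was at 189 and 114 bp without AP and at 251 bp in plus AP replicate 1 (rank 607 of 739, 37 of 56 and 972 of 1094). ID1, an inhibitor of basic helix-loop-helix factors, was at −9 bp, −152 bp and 834 bp in minus AP replicate 2 and plus AP replicates 1 and 2. These 8 genes were each missing from 1 list, which was minus AP replicate 1 for 5 of them (CEBPD, EEF1A1, HOOK2, ID1 and TAF12). For CEBPD and HOOK2 that list had a summit just outside the rule, at 1037 bp and −1051 bp, and both genes were in all 4 lists with a 2000 bp window.

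In both lists of 1 condition and neither of the other were 8 genes with AP and 1 without, of 19970 protein-coding genes. Counting only the nearest gene of each summit left 6 with AP and 1 without, as H2BC21 and H2AC20 share their summits. The 8 were H2BC21 and H2AC20, core histone genes, MYC, the growth-promoting transcription factor, ZFP36L1, an mRNA decay factor, ZNFX1, an RNA helicase-like antiviral factor, RBM39, a splicing factor, TRAF7, a ubiquitin ligase, and POLDIP3. H2BC21 had summits at −265 bp in plus AP replicate 1 (rank 917 of 1094) and at −101 and 694 bp in plus AP replicate 2 (rank 3 of 297), which were at 29, −135 and −930 bp of H2AC20. MYC was at 202 bp in plus AP replicate 1 (rank 593) and at 3 and 477 bp in plus AP replicate 2 (rank 20), with the nearest minus-AP summits 3108781 and 3108982 bp away. ZNFX1 was at −256 bp (rank 366) and −416 bp (rank 45), and ZFP36L1 at 168 bp (rank 841) and 26 bp (rank 22).

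DDIT4, an inhibitor of mTORC1 induced by stress, was the 1 gene in both minus-AP lists and neither plus-AP list, at 223 bp (rank 177) and −1 bp (rank 6). The plus-AP lists also had summits there, 1135 bp and 1257 bp past the canonical start, just outside the rule, and with a 2000 bp window DDIT4 was in all 4 lists. A window of 2000 bp gave 11 genes with AP and 0 without. The plus-AP lists were the longer ones for each replicate number, and when only the 29 highest-scoring promoter summits of each list were used, 2 genes (MYC and ZNFX1) were in both plus-AP lists only and 3 (DDIT4, SFN and SOD2) in both minus-AP lists only. Equal numbers of summits do not equalise depth, so presence by condition and depth or length of list cannot be told apart for any of these genes, and SOD2 and SFN had plus-AP summits among those of lower score. An exact test of presence in 2 lists against 2 cannot go below p = 0.333.

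The remaining 13 genes in 2 lists had 1 list of each condition. Of these, 6 were in both replicate 2 lists (among them BTG1, INTS6, MAP2K7, NOP56 and ZBTB37), 4 in minus AP replicate 1 with plus AP replicate 2 (DUSP1, EIF1, FTH1 and ZFP36), 2 in both replicate 1 lists (CROCC and KRT14) and 1 in minus AP replicate 2 with plus AP replicate 1 (BIRC3). INTS6, a subunit of the Integrator complex, was at −95 bp and 91 bp from its nearest start at positions 38 bp apart, and MAP2K7, a kinase that activates JNK, was at −361 bp and −418 bp. BTG1, an antiproliferative factor, was at −351 bp and −53 bp. NOP56, a core protein of box C/D snoRNPs, had its minus-AP summit exactly at a start (0 bp, rank 55 of 56) and its plus-AP summit at −514 bp (rank 65 of 297). FTH1, the ferritin heavy chain, was at −112 bp without AP and −615 bp with AP, 971 bp apart, so a gene could recur without the summits being close. Apart from those of the gene lists, these names were chosen after their values were seen.

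By role, promoter summits were most frequent, as the share of a gene list reached in any list, in immediate-early, translation, metabolic stress and keratin genes. The gene lists were chosen with earlier results of these data known, so their shares are descriptions and no test of a role. Of 23 immediate-early genes, 3 (DUSP1, JUNB and ZFP36) and 1 (JUNB) had a summit without AP, and 2 (JUNB and MYC) and 7 with AP, where plus AP replicate 2 held DUSP1, FOSL2, IER5, JUNB, JUND, MYC and ZFP36. The shares were 13.0% and 4.35% without AP and 8.7% and 30.4% with AP. Of all protein-coding genes, 0.11%, 0.13%, 0.18% and 0.916% had one in the same lists. DUSP1, a phosphatase that inactivates MAP kinases, was at 679 bp in minus AP replicate 1 (rank 256) and 154 bp in plus AP replicate 2 (rank 11), and the other lists had summits 1278 and 1099 bp past its start. ZFP36, an mRNA decay factor, was at 160 bp in minus AP replicate 1 and at 98 and 772 bp in plus AP replicate 2. FOS, JUN and EGR1 were among those with none in any list. Only 1.01% of all protein-coding genes were reached in any list, so this does not set them apart.

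Of 15 NF-kappaB targets, 2 and 3 had a promoter summit in the minus-AP lists, and 3 and 2 in the plus-AP lists, namely NFKBIA and SOD2 in each and BIRC3 in minus AP replicate 2 (205 bp) and plus AP replicate 1 (487 bp). These were 13.3%, 20.0%, 20.0% and 13.3% of the targets, where 0.11%, 0.13%, 0.18% and 0.916% of all protein-coding genes had one in the same lists. Of 11 metabolic stress genes, 3, 3, 2 and 2 (27.3%, 27.3%, 18.2% and 18.2%) had one, which were TXNIP and GLUL in every list and DDIT4. Of 12 basal and stress keratins, KRT5, KRT14 and KRT6A had summits in minus AP replicate 1, KRT5 and KRT14 in plus AP replicate 1, and KRT5 alone in the replicate 2 lists (25%, 16.7%, and 8.33% in each of the last). KRT14, the partner of KRT5 in basal cells, had 3 summits in each replicate 1 list, at −302, −281 and 843 bp without AP and at −353, 56 and 746 bp with AP. Those offsets are to several annotated starts, and the 6 summits spanned 3103 bp. The summits nearest the canonical start were 843 bp (minus AP) and 56 bp (plus AP) past it. KRT14 was thus in both replicate 1 lists and in neither replicate 2 list.

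Members of several groups were found mostly in plus AP replicate 2, the list with most promoter summits. Of 83 cytosolic ribosomal protein genes, 11 (13.3%, against 0.916% of all protein-coding genes) had a promoter summit there, such as RPL8 at −321 and −38 bp (rank 85) and RPL19 at −7 bp (rank 281). The other lists had 0 of the 83, which is near their share over all genes (0.11% to 0.18%) and does not set the group apart there. Of 17 translation factors, EEF1A1, EIF1, EIF4A1, EIF4A2 and EIF4G2 had summits there, and EIF1 also had one in minus AP replicate 1. EEF1A1, the elongation factor that brings aminoacyl-tRNA to the ribosome, also had them in minus AP replicate 2 and plus AP replicate 1 (170, −95 and −150 bp in the 3 lists). The EEF1A1 offsets are not all to the same start. Its 3 summits lay 217, 346 and 291 bp past the canonical start, within 129 bp of each other. The heat shock genes HSPB1 and HSPH1, the actin cytoskeleton genes ACTB and TAGLN2 and the adhesion genes CD151, DST and JUP were in that list only. They made up 15.4% of 13 heat shock, 11.8% of 17 actin and 15.8% of 19 adhesion genes there, against 0.916% of all genes. DSP, the desmosomal plakin, was in minus AP replicate 1 only, at 71 bp.

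Of 69 replication-dependent histone genes, which make unpolyadenylated mRNA during S phase, 0 had a promoter summit in either minus-AP list, 4 had one in plus AP replicate 1 (H2AC20, H2AC6, H2BC21 and H2BC4) and 5 in plus AP replicate 2 (H1-4, H2AC20, H2BC21, H2BC5 and H4C2). In plus AP replicate 1, H2AC20 and H2BC21 were reached by the same summit (position 149886947), and H2AC6 and H2BC4 by another (position 26124144). Apart from H2AC20 and H2BC21, which share summits, no histone gene was in both plus-AP lists. These were 2.9% of the histone genes, against 0.12% of all protein-coding genes in both lists. The plus-AP counts were 5.80% and 7.25% of the histone genes, against 0.18% and 0.916% of all genes, and 0 of 69 in the minus-AP lists is near their share over all genes (0.11% and 0.13%). Of 15 KLF and SP factors, KLF5 was joined by KLF7, at 30 bp in plus AP replicate 2 (13.3% in that list, against 0.916% of all genes). Of 20 nuclear transport genes, RCC1 was in every list (5.0% in each, against 0.11% to 0.916% of all genes). CSE1L, KPNA1, KPNA2 and KPNB1 were in none, as were most protein-coding genes, of which 1.01% were reached in any list. CSE1L, the exportin that returns importin alpha to the cytoplasm, had its nearest plus-AP summits 232370 and 232530 bp away. EGFR had 1 summit, in plus AP replicate 2 at 770 bp (chromosome 7, position 55019921, intron 1, rank 260 of 297), and ERBB2 had none, with the nearest 499788 bp away. Of 9 promoters named in earlier work on nuclear EGFR, MYC alone had a summit, in both plus-AP lists (11.1% in each, against 0.18% and 0.916% of all genes). The 13 glycolysis genes and 7 markers of other cell types had none in any list. This is near the share over all protein-coding genes (1.01% in any list) and does not set them apart. Of 9 markers of basal breast epithelium KRT5 and KRT14 had them (22.2% in any list), which is not a measure of expression.

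**Figure D5:**
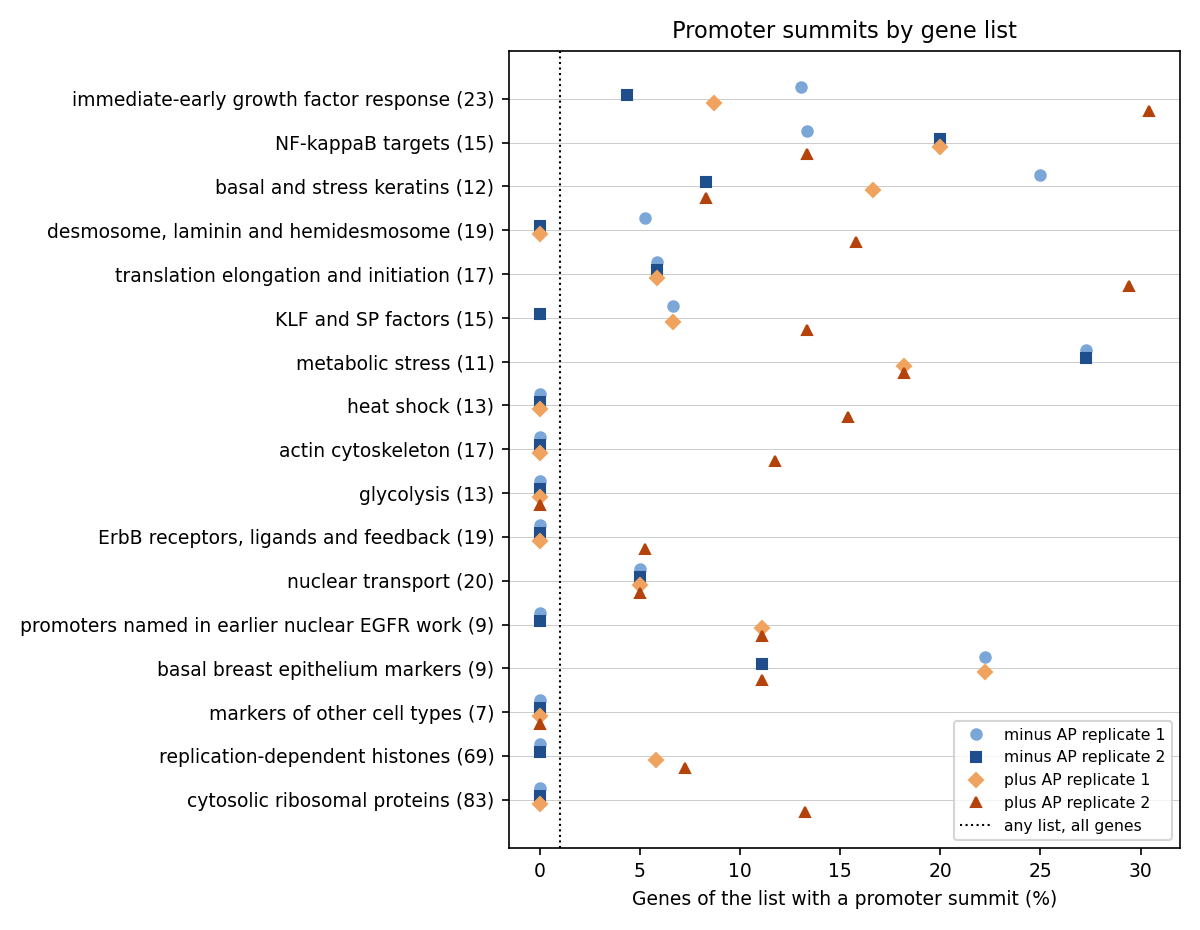
Share of each gene list with a promoter summit (%, x axis), by list of summits (symbols), with the number of genes in brackets. The dotted line at 1.01% is the share of all protein-coding genes reached in any list, and ribosomal protein genes reach 13.3% in plus AP replicate 2.

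The 14 genes in 1 list other than plus AP replicate 2 were DSP, FOXO1 and KRT6A in minus AP replicate 1, ETS2, LAMA5 and PCIF1 in minus AP replicate 2, and BOLA1, FAM86B2, FXYD3, H2AC6, H2BC4, MUC3A, SQSTM1 and ZNF34 in plus AP replicate 1. BOLA1 was reached only by the summit of H2AC20 and H2BC21, at −943 bp, and H2AC6 and H2BC4 shared the same summit. Of the 149 in plus AP replicate 2 only, high ranks were those of IL20RB (445 bp, rank 17), DST (191 bp, rank 30) and RAB26 (983 bp, rank 35). These names were chosen after their values were seen.

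Small RNA genes lay beside more promoter summits of recurrent genes than of others. Within 500 bp of a snRNA, snoRNA or scaRNA gene were 24 of the 286 summits (8.39%), while 0.189% of the bases in the rule's windows were that close to one. Such summits were found at 8 of the 39 genes in 2 or more lists (20.5%) and at 5 of the 163 genes in 1 list (3.07%). Beside RNU2-2P at WDR74 they were RNU11 at TAF12 (3 lists, 0 to 102 bp away), RNU4ATAC at CLASP1 (3 lists, 0 to 277 bp), RNU12 at POLDIP3, RNU1-4 at CROCC, SNORD12C at ZNFX1 and SNORD60 at TRAF7 (2 lists each), and SNORA73A and SNORA73B at RCC1. RNU11, RNU12 and RNU4ATAC make RNAs of the minor spliceosome. Of the 8 genes in both plus-AP lists only, POLDIP3, TRAF7 and ZNFX1 were of this kind.

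Genes with promoter summits were shorter than protein-coding genes as a whole, and a larger share of the windows at their canonical starts held a TATA box. Sequence was searched at canonical starts only. For 79 of the 286 summits (27.6%), the gene with the nearest start had only an alternative start in reach. The windows are therefore not always the promoter at the summit. The median canonical transcript spanned 5762 bp for the 39 genes in 2 or more lists and 12112 bp for those in 1 list, against 22930 bp for all protein-coding genes, and 6 of the 39 (15.4%) had a single exon against 5.57% of all, among them CEBPD, H2AC20, H2BC21, JUNB and SFN. In the 300 bp from 250 bp before the canonical start to its first 50 bases, TATAAA on the sense strand 40 to 20 bases before the start was found for 9 of the 39 (23.1%), 21 of the 202 (10.4%) and 3.86% of all genes. The 9 were BTG1, DUSP1, H2AC20, H2BC21, ID1, JUNB, KRT14, MYC and ZFP36L1. In the same window, searched on both strands, CCAAT was found for 51.3% of the 39, 43.6% of the 202 and 36.01% of all genes. The GC box was at 69.2%, 73.3% and 61.3%, and CpG-rich windows (GC of 50% or more, observed over expected CpG of 0.6 or more) made up 84.6%, 83.7% and 65.5%.

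The CArG box was found for 6 of the 202 genes (2.97%) and 1.202% of all genes, and the cyclic AMP element for 8 (3.96%) and 2.69%. The AP-1 site was in 5.94% of the windows of the 202 genes and 5.44% of all windows, the NF-kappaB consensus in 10.4% and 12.6%, and the E-box in 9.41% and 8.75%. The ETS site (CCGGAAG) was in 16.8% and 14.1%, and the STAT site (TTCNNNGAA) in 7.43% and 6.51%. The AT-rich sequence TNTTT or TTTNT, which earlier work linked to nuclear EGFR, was in 78.2% and 79.2%. Median GC of the windows was 64.7% for the 202 genes and 63.7% for all. These shares are descriptions without a test, since genes were reached by summits of libraries that differ in length and 183 of the 202 genes were in plus AP replicate 2.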

How the data were processed

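Members, gene lists and tests were chosen with earlier results of these data known. The deposited files hold, per GluGlu library, summit positions with a score that is −log10 of the MACS2 q-value. According to the study's methods and the submitters' processing notes, the authors aligned 75-bp paired reads to GRCh38 with Bowtie2 2.2.9 after FastQC 0.11.5, kept unique non-duplicate reads and called each library separately with MACS2 2.2.7.1 at default settings. The study's methods name input as the control, while its account of the results speaks of naive IgG, so which of them each score was measured against is not settled here. No counts or depths were used, and scores were compared within a list only, since they grow with depth.

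Starts came from 170058 transcripts of GENCODE 44, and no summit lay beyond a chromosome end of the reference. Offsets are signed distances to the nearest start. Shares have Wilson 95% intervals. Conditions were compared over libraries with exact permutation tests, and promoter with other summits with an exact sign-flip test (SciPy 1.17.1, NumPy 2.4.6, pandas 2.3.3, Numba 0.67.0, Python 3.11.15). Scripts were tested on simulated data. Named genes were those in all 4 lists, those of the 5 highest-scoring promoter summits of each list, up to 10 genes in both lists of 1 condition only, members of the gene lists, and 12 genes of the study's receptors, transport factors and chromatin results. The alternatives were other windows (500 and 2000 bp), canonical starts, a minimum score of 2, merging within 500 bp, summits near genes, the nearest gene only, equal numbers of summits, replicate numbers as a block, leaving out each library, and summits in mostly unique sequence. Some items met by these rules are not reported here.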

Additional observations from a re-analysis of the deposited data

How the results depend on the processing

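The difference in promoter share between conditions changed sign when 1 library was left out, ranging from −24.5 (without plus AP replicate 2) and −20.1 (without minus AP replicate 1) to 32.9 points (without plus AP replicate 1), and was positive under every other alternative (2.23 to 5.57 points). The difference in median offset was negative under every alternative listed here (−89.0 to −27.8 bp), also when a library was left out, but the order of the 4 medians did not hold with canonical starts only. The mean score percentile difference was negative throughout (−10.0 to −2.77), though minus AP replicate 2 turned to 4.46 against summits near genes, and no test passed 0.05, which the numbers of libraries do not allow. Genes in both plus-AP lists were 24, 13 with equal numbers of summits, and 36 to 183 when 1 plus-AP library was left out. Genes in both minus-AP lists were 11, and 22 to 26 when 1 was left out. Genes in all 4 lists were 9, 14 within 2000 bp, 5 with canonical starts only, and 9 to 14 when 1 library was left out. These counts follow from the alternatives' construction, since fewer lists or wider windows admit more genes. With the replicate number as a replicate block the differences were 4.17 points (exact sign-flip permutation test, p = 1.0) and −53.3 bp (p = 0.5, the smallest that 2 pairs allow). Nothing in the labels ties samples of the same number across conditions, so the pairing is by number only, and 2 pairs are too few to check it. Lists of 56 to 1094 summits with unknown depth limit every statement on presence.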
